A study of Mus musculus with 8 samples.

Results

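The 2063 regions described here were Oct6 ChIP-seq peaks that lay in gene deserts, long stretches of chromosome without a protein-coding gene. They were taken from a list of 7979 Oct6 peaks called at day 4 on the mouse genome build mm9. A peak was kept when its deposited score was below 20, its centre lay outside every protein-coding gene, and the nearest protein-coding transcript start was more than 100 kb away. The score and distance limits used no expression value. The 2063 peaks were 25.9% of the whole list and 26.8% (95% Wilson interval 25.8 to 27.8) of the 7701 peaks with a score below 20 on an assembled chromosome. Such intervals cover counting error only.

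Oct6, the product of Pou3f1, is a POU transcription factor active in epiblast, neural progenitors and myelinating glia. Its DNA-binding part joins a POU-specific domain and a homeodomain, which together read an octamer, and POU dimers read palindromic sites of which the MORE (more palindromic Oct factor recognition element) is the best known. Gene deserts often flank genes for developmental regulators and for neural adhesion molecules, and can hold enhancers that act over long distances.

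The cells were mouse embryonic stem cells, for which the labels name R1 and R1/E, kept on feeder cells and then differentiated as embryoid bodies. RNA-seq covered control cells and cells with doxycycline-induced Oct6 overexpression at day 2, day 4 and day 6, with 1 library per arm and day. Chromatin came from 1 Oct6 ChIP library and 1 input library of Oct6-overexpressing cells at day 4 of neural differentiation. The labels do not say whether the control cells received doxycycline or were of the same line as the induced cells. One growth protocol, of serum-free differentiation, is given for all samples, yet the RNA library titles carry the unexplained prefix fbs, so it is not known whether RNA and ChIP came from cells in the same medium. Effects of doxycycline, of the cell line and of Oct6 therefore cannot be told apart, and the ChIP has no replicate and no ChIP from control cells beside it.

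Sequences of 12 peaks are shown because they carry the sites counted further on and lie beside genes whose RNA differed between the arms. They were chosen after their values were seen. All are on the plus strand of mm9, written 5′ to 3′, with matched bases in capitals. Matches on either strand were taken for the octamer ATGCAAAT (ATTTGCAT on the other strand), the 6-base palindrome ATGCAT, and the MORE-type site, in which 2 half-sites ATGN on opposite strands face each other across ATAT and N is any base. The palindrome is part of some MORE-type sites, so these matches can overlap.
The first 4 hold a MORE-type site and lie nearest to Lrrn1, Epha3, Plxna2 and Pax3, in that order.
chr6:107254096-107254228: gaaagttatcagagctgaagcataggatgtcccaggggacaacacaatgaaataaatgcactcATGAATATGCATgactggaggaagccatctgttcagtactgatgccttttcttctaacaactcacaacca
chr16:64163799-64163931: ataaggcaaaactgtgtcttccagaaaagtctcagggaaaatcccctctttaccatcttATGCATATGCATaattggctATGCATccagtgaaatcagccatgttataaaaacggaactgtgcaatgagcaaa
chr1:195903061-195903193: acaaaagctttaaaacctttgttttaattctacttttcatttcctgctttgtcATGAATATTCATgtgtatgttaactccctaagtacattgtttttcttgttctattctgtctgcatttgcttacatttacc
chr1:77870212-77870344: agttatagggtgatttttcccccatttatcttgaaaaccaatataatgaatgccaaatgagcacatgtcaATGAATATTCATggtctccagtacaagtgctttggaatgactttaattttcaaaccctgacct
The next 5 hold an octamer and lie nearest to Plxna2, Fat3, Dach1, Syt1 and Sox2.
chr1:196034509-196034641: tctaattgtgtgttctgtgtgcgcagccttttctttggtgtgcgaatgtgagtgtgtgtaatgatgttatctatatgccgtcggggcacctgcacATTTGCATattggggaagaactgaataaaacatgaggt
chr9:16289513-16289645: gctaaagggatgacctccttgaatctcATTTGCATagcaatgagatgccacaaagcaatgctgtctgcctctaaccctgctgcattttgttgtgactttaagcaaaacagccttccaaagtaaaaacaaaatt
chr14:97936313-97936445: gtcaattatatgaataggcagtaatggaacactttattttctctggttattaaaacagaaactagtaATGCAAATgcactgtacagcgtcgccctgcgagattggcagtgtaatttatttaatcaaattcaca
chr10:108604944-108605076: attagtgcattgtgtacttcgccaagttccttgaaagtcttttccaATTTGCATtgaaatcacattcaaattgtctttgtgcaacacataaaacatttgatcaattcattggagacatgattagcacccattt
chr3:34727520-34727652: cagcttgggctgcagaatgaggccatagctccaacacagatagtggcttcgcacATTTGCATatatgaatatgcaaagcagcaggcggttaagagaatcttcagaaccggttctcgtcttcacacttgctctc
The last 3 hold the palindrome alone and lie nearest to Dok5, Lrrn1 and Hand2. The one near Hand2 holds 5 copies, several of them inside a repeat of short units, and shows how some matches fall in repetitive sequence.
chr2:170825889-170826021: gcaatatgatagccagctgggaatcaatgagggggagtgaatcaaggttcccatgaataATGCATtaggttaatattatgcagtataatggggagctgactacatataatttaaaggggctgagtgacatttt
chr6:107608907-107609039: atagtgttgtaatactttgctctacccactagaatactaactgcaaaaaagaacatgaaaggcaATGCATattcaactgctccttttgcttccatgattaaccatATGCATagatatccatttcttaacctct
chr8:59661250-59661382: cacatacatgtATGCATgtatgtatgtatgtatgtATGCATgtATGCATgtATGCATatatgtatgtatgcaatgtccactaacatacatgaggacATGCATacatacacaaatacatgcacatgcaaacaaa

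Every peak was 133 bases long. Scores of the desert peaks ran from 7.6 to 19 with a median of 11.4, which was also the median of peaks in gene bodies, at gene starts and in nearer intergenic sequence. Scores fell on multiples of 1.266, within 0.05 for 99.8% of all peaks. The desert peaks spanned 6 to 15 such steps, and 1329 of them (64.4%) stood at 8 or 9 steps. Most of these peaks therefore rest on few steps of the authors' score. At the score limit, 28 peaks stood at 19, while 12 desert peaks just outside stood at 20.3. In all, 67 desert peaks had a score of 20 or more, up to 113.9, and were left out by the rule.

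The nearest protein-coding start was a median of 348 kb away, with quartiles of 190 and 659 kb. For 1503 peaks it was beyond 200 kb, for 723 beyond 500 kb and for 226 beyond 1000 kb. The peak just inside the distance limit was 100033 bases from a start, and the closest one outside it 99746 bases. The farthest peak lay on chromosome 18 between Celf4 and Pik3c3, 2238 kb from a start. After it came chr14:82624035-82624167 between Olfm4 and Pcdh17 at 2219 kb, another peak between Celf4 and Pik3c3 at 2174 kb, chr1:104558105-104558237 between Cntnap5b and Cdh20 at 2107 kb, and chr5:60192438-60192570 between Pcdh7 and G6pd2 at 2008 kb. Among the 10 highest-scoring desert peaks, ties at 19 broken by distance, 3 held a MORE-type site, 2 the palindrome alone, and 5 no octamer, palindrome or MORE-type site. Those with a MORE-type site were chr5:56244100-56244232 between Stim2 and Pcdh7, chr16:71261215-71261347 between 4930423O20Rik and Robo1, and a chromosome 18 peak between Zfp608 and Gramd3. Among the 5 without a site were chr7:76806047-76806179, 699 kb from Nr2f2, and chr13:79000096-79000228, 661 kb from Nr2f1, orphan nuclear receptors of neural development.

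The nearest other peak of the list was a median of 68.1 kb from a desert peak. For 441 peaks (21.4%) another peak lay within 10 kb, and for 189 (9.16%) within 1 kb. Only 46 (2.23%) lay inside another gene model, of which 24 were in processed transcripts and 19 in long intergenic noncoding RNA genes. One of these was in Sox2ot and 2 were in Pvt1. Sox2ot, a long noncoding RNA spanning Sox2, had 0.857, 0.262 and 0.132 FPKM in the control libraries of days 2, 4 and 6, and 0.892, 0.827 and 0.694 FPKM in the induced ones. Those levels were below 1 in all 6 libraries. Pvt1 had 3.98, 1.75 and 0.922 FPKM in control and 4.04, 2.64 and 0.940 FPKM in induced cells, so its arms differed little on days 2 and 6.

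Desert by this definition covered 779 of 2556 Mb (30.5%) of the assembled chromosomes. It held 2.65 desert peaks per Mb (95% Poisson interval 2.53 to 2.76), against 3.17 per Mb (3.09 to 3.26) for other peaks with a score below 20 on the rest of the sequence. Chromosomes differed. Chromosome 14 had 261 desert peaks, or 6.399 per Mb of desert (5.65 to 7.22), and chromosome 1 had 230, or 3.48 per Mb (3.04 to 3.96). The other 17 autosomes ranged from 1.85 to 3.34 per Mb with a median of 2.52. On the X chromosome there were 12 desert peaks in 58.5 Mb, or 0.205 per Mb (0.106 to 0.359). Other peaks were also sparse there, at 0.348 per Mb, and dense on chromosome 1 (5.39 per Mb) and chromosome 14 (4.45 per Mb). Together chromosomes 1 and 14 held 23.8% of the desert peaks and 13.7% of the desert. Whether the number of copies of each chromosome or the input signal moves with these densities was not tested.

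**Figure D1:**
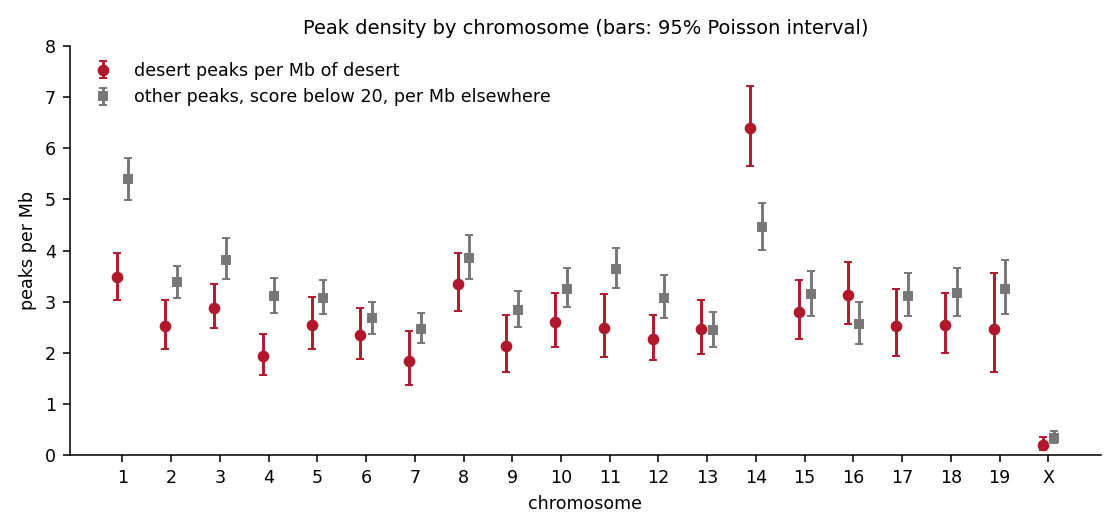
Peaks per Mb on each chromosome for the 2063 desert peaks (red circles, per Mb of desert) and for other peaks with a score below 20 (grey squares, per Mb of the remaining sequence), with 95% Poisson intervals. Chromosome 14 stands highest for desert peaks at 6.399 per Mb and the X chromosome lowest at 0.205.

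A stretch of desert between 2 neighbouring protein-coding starts is called a gap here. Of 1956 gaps that held any desert, 669 held a desert peak. The desert peaks scoring 20 or more, left out by the rule, were not counted in gaps. Gaps with a peak had a median of 0.583 Mb of desert, and the 1287 without one 0.0977 Mb. Peaks were gathered in few gaps: 118 gaps with 5 or more peaks held 1052 of them, and 32 gaps with 10 or more held 521. The fullest gaps were Gm9931 to Pla2g4a on chromosome 1 with 29 peaks, Olfm4 to Pcdh17 on chromosome 14 with 29, and Dsel to Cntnap5a on chromosome 1 with 28. Pcdh17, a protocadherin, had 29 peaks on one side and 23 in the gap towards Diap3, a formin. It was weakly expressed throughout, at 0.170, 0.0662 and 0.645 FPKM in control and 0.268, 0.590 and 0.660 FPKM in induced cells on days 2, 4 and 6. Cntnap5a, a neurexin-family adhesion protein, stayed below 0.1 FPKM in all 6 libraries. In contrast, Pcdh9 with 46 peaks on its 2 sides had 0.0772, 0.101 and 0.130 FPKM in control and 1.57, 1.14 and 1.77 FPKM in induced cells. A gene with many desert peaks beside it was thus not always expressed.

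An exact octamer was present in 102 of 2063 desert peaks, or 4.94% (4.09 to 5.97). It was present in 1.79% (1.43 to 2.25) of 4126 flanks, sequences of the same length taken on both sides with their outer end 500 bases from the peak edge. Of all 5857341 non-overlapping desert windows of that length, 1.43% held one. The difference from the flanks was 3.15 percentage points (95% Newcombe interval 2.18 to 4.24). Peaks in gene bodies (4.74%) and nearer intergenic peaks (5.33%) had shares within the counting error of the desert share, with differences of 0.201 points (-1.03 to 1.47) and -0.390 points (-1.92 to 1.06). Peaks at gene starts, within 1000 bases of a start, held an octamer in 0.946% (0.574 to 1.56). The exact octamer was thus as frequent in peaks far from genes as in nearer ones within these intervals, and scarcer at starts. The background differed by class. Flanks of nearer intergenic, gene body and gene start peaks held an octamer in 1.45%, 1.05% and 0.663%.

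The palindrome was more frequent than the exact octamer in every class of region, a comparison chosen after the sequences were seen. A string of 6 bases is expected to match more often than one of 8, so this order says little about the peaks. The palindrome was in 530 desert peaks, or 25.7% (23.9 to 27.6), in 7.004% of flanks and in 4.60% of all desert windows. Its share in desert peaks was 3.67 times that in flanks, and the share of the octamer 2.76 times. Desert peaks held it 6.72 points (3.94 to 9.44) more often than nearer intergenic peaks and 3.53 points (1.06 to 6.01) more often than peaks in gene bodies. The flanks of those 2 classes also held it less often than desert flanks, in 5.47% and 4.96%. Desert peaks therefore also lay in sequence richer in the palindrome. Median GC content moved with these classes, at 36.1% in desert peaks, 42.1% in nearer intergenic peaks, 39.9% in gene body peaks and 61.7% in gene start peaks. Its part in the differences between classes was not tested. Peak and flank differed little in GC content, with 36.8% in the flanks and 39.1% over all desert windows. Of the desert peaks, 148 (7.17%) held 2 or more copies, and the same was true of 0.557% of flanks. A tandem repeat of units up to 6 bases was present in 5.14% of peaks and 4.43% of flanks, and without such sequences the palindrome shares were 24.3% and 7.05%.

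A MORE-type site was in 67 desert peaks, or 3.25% (2.57 to 4.10), in 0.315% of flanks and in 0.0950% of desert windows. In 32 of the 67 peaks both N positions completed a half-site of ATGC or ATGA, against 2 of the 13 flanks with a MORE-type site. Peaks scoring 20 or more, in deserts or elsewhere, held a MORE-type site in 21.2% (16.7 to 26.5) and the palindrome in 52.7% (46.6 to 58.6) of 264. Among the desert peaks, those with scores from 15.2 to 19 held a MORE-type site in 7.02% (4.37 to 11.1) of 228, and those at 10.1 or below in 3.08% (2.12 to 4.44) of 877. Those 2 intervals overlap slightly. Palindrome shares hardly moved with distance, being 26.6%, 24.7% and 26.0% at 100 to 200 kb, 200 to 500 kb and over 500 kb. On chromosomes 14 and 1 the palindrome was in 23.0% and 25.2% of desert peaks, and on the other chromosomes in 26.2%, with overlapping intervals. The octamer was in 3.07% (1.56 to 5.93) and 3.04% (1.48 to 6.15) of desert peaks on chromosomes 14 and 1, and in 5.53% (4.51 to 6.78) on the others. Its shares were thus lower on both dense chromosomes, with intervals that overlap.

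Other sequences were also counted after the data were seen. The 7-base string ATGAATA, part of some MORE-type sites, was in 18.03% of desert peaks, 6.08% of flanks and 3.69% of desert windows. A homeodomain-type string, TAATGA, was in 19.2% of peaks, 12.5% of flanks and 9.37% of windows. The SOX-type string ACAAAG was less frequent in peaks (9.50%) than in flanks (12.6%), a difference of -3.13 points (-4.71 to -1.47). An octamer with at most 1 mismatch was in 47.4% of peaks, 23.4% of flanks and 19.9% of windows. Nearer intergenic peaks held one in 32.95% and their flanks in 16.3%, and gene body peaks in 38.9% and their flanks in 17.4%. In all, 621 desert peaks (30.1%) and 8.58% of flanks held an octamer, a palindrome or a MORE-type site. The remaining desert peaks held none of the 3, which says only that these letters are not in the 133 bases. A match describes the sequence and does not show that Oct6 was bound through it.

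**Figure D2:**
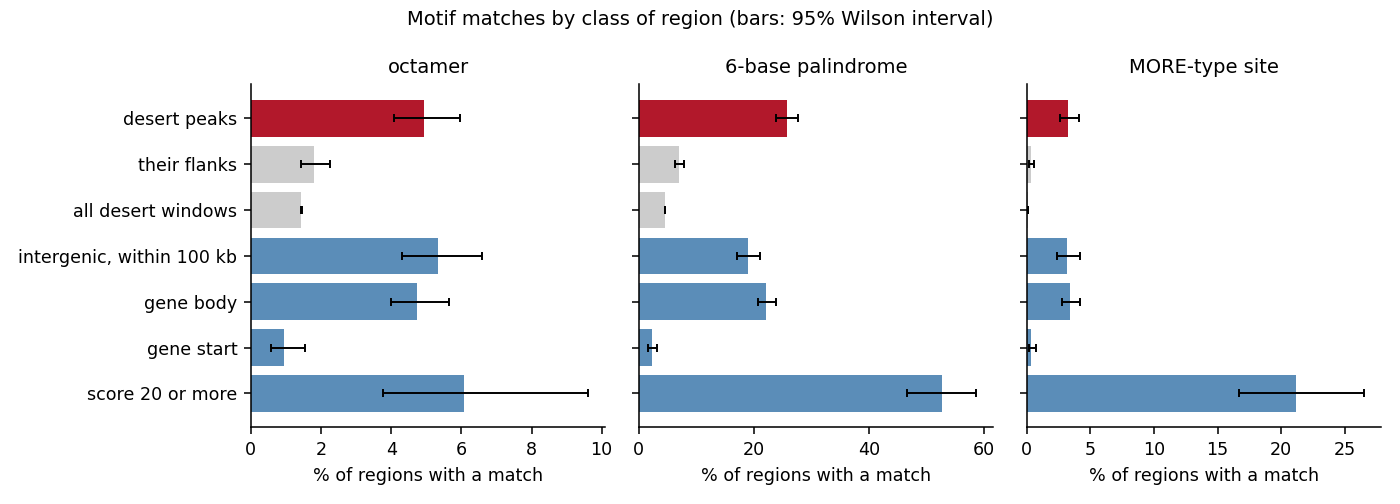
Share of regions with an octamer, the 6-base palindrome or a MORE-type site, with 95% Wilson intervals, for desert peaks (red), their flanks and all desert windows (grey), and other classes of peak (blue). Desert peaks exceed their flanks for each of the 3 sites, and peaks scoring 20 or more hold the palindrome in 52.7%.

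Matches were centred on the peaks. In the 100 bases around the peak centre there were 34.6 palindrome matches per 100 peaks. One bin to either side there were 11.1 and 15.03, and at 1000 bases on either side 4.22 and 6.06. Octamer matches stood at 4.31 per 100 peaks in the central bin and at 1.12 and 1.503 at 200 bases on either side. The central 31 bases occurred once in the genome for 97.3% of desert peaks and 95.3% of left flanks, so most peak centres were unique sequence.

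**Figure D3:**
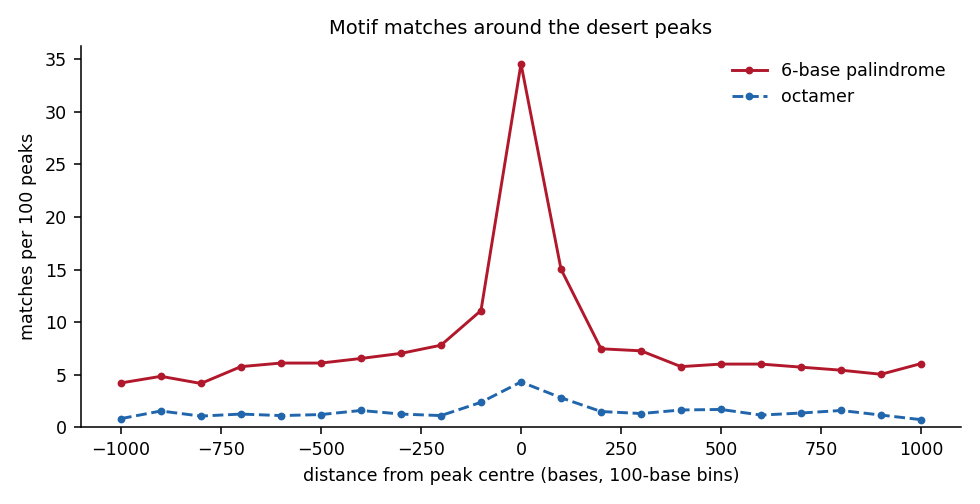
Palindrome (solid) and octamer (dashed) matches per 100 desert peaks in 100-base bins, by distance from the peak centre. Palindrome matches reach 34.6 per 100 peaks in the central bin and 4.22 to 6.06 at 1000 bases.

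The genes on both sides of each desert peak are its flanking genes. There were 1193 flanking symbols, of which 1011 were in the deposited FPKM table (fragments scaled to transcript length and library size). The nearest gene read towards the peak for 48.0% (45.8 to 50.2) of peaks, within counting error of an even split. Pou3f1 itself had 64.3, 10.1 and 4.76 FPKM in control and 312, 222 and 86.8 FPKM in induced libraries on days 2, 4 and 6, so the induced library was the higher one each time. Pluripotency markers were present in all libraries (Pou5f1 between 136 and 890 FPKM). Pou5f1, Nanog, Sox2, Utf1 and Dppa4 summed to 1477, 714.5 and 217.8 FPKM in control and 714, 717 and 251.9 FPKM in induced cells. Nanog was not lower in induced cells on day 2, at 50.6 FPKM in control against 53.0 FPKM. On day 4 Pou5f1 and Utf1 were lower in induced cells, and Nanog, Sox2 and Dppa4 were higher. Neural progenitor markers (Sox1, Pax6, Zic1, Nes and Hes5) summed to 4.62, 14.29 and 14.31 FPKM in control and 9.71, 19.91 and 32.75 FPKM in induced cells. Of these, Nes was lower in induced cells on day 4 (13.8 against 9.20 FPKM) and Hes5 on day 2 (0.0461 against 0.0296 FPKM). Neuron markers summed to 19.2, 6.47 and 14.8 FPKM in control and 70.4, 52.7 and 92.2 FPKM in induced cells, over Tubb3, Dcx, Elavl3, Mtap2 and Ncam1, with Dcx at 0.0438 to 0.132 FPKM in control. Elavl3 was lower in induced cells on day 2, at 1.63 FPKM in control against 1.27 FPKM. Visceral endoderm markers summed to 13.7, 93.3 and 153.9 FPKM in control and 4.04, 4.56 and 11.2 FPKM in induced cells, with Afp at 0.0267 and 0.0334 FPKM on day 2. In bulk RNA, fewer cells of a type and less RNA per cell cannot be told apart. The part of these shifts in the results below was not tested.

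Fewer flanking genes were expressed in control cells than in induced cells. At 1 FPKM or more stood 46.5%, 50.05% and 56.3% of them in control on days 2, 4 and 6, and 58.1%, 60.9% and 60.2% in induced cells. Over all 20245 protein-coding genes in the table the shares were 54.2%, 56.1% and 57.8% in control and 58.3%, 58.4% and 58.8% in induced cells. On days 2 and 4 the control shares of flanking genes thus lay below the overall share, and the induced shares were level with it or slightly above.

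A gene was counted as different when log2(FPKM + 1) differed by at least 1 (2-fold) and FPKM was at least 1 in either library of that day. This scale understates folds of weakly expressed genes. No test was made within a day, where each arm has 1 library. On day 2, 156 of 592 flanking genes (26.4%) were higher in induced cells and 8 were lower, against 9.72% higher and 1.83% lower among all genes of the table. On day 4, the labelled day of the ChIP, 154 of 627 (24.6%) were higher and 9 lower, against 6.09% and 2.11%. On day 6, 59 of 635 (9.29%) were higher and 17 lower, against 3.37% and 2.1%. The median log2 difference of the flanking genes was 0.40, 0.32 and 0.15 on the 3 days, and that of all genes 0.17, 0.10 and 0.06. In either direction, 164, 163 and 76 flanking genes differed on days 2, 4 and 6, against 11.5%, 8.2% and 5.47% of all genes. Higher flanking genes outnumbered lower ones on each day, and the margin was smallest on day 6. A gene can pass the filter of 1 FPKM through its induced library alone. Without that filter, 15.4%, 15.2% and 5.84% of 1011 flanking genes were higher on days 2, 4 and 6. Over all genes the shares were then 5.42%, 3.42% and 1.915%.

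Genes at a desert without a peak were also higher more often than genes at no desert. Their shares were 19.1%, 13.4% and 6.23%, and those of protein-coding genes at no desert 7.68%, 4.01% and 2.19%. Without a peak means, here and below, without one of the 2063 peaks. The 67 desert peaks scoring 20 or more were not counted, so a desert without a peak may still hold one of those. Flanking genes exceeded genes at deserts without a peak by 7.29 points (3.11 to 11.6) on day 2, 11.1 points (7.29 to 15.1) on day 4 and 3.06 points (0.508 to 5.87) on day 6. Size of the desert was set beside this, since gaps with a peak are longer. In gaps with 0.5 Mb or more of desert, 25.4% (21.1 to 30.4) of 338 genes beside a peak and 8.60% (4.42 to 16.1) of 93 genes beside none were higher on day 4. On day 2 these shares were 24.6% and 8.89%, and on day 6 they were 12.1% and 7.37%, with overlapping intervals on day 6. Leaving out the X chromosome gave 25.4% and 9.46% on day 4. In smaller gaps the shares on day 4 were 23.5% with a peak and 13.9% without, and on day 6 they were 5.92% and 6.13%. Size was not matched within these classes. The median desert beside the genes was 0.233 Mb with a peak and 0.0824 Mb without in smaller gaps. In larger gaps it was 1.04 and 0.733 Mb.

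The shares were then split by number of peaks, distance and sequence. Day 4 shares of higher genes were 21.3% beside 1 peak, 26.3% beside 2 or 3, 25.2% beside 4 to 9 and 34.1% beside 10 or more, with overlapping intervals. On day 6 they were 5.08% (2.99 to 8.49), 9.69%, 12.1% and 23.3% (13.2 to 37.7, of 43 genes) in the same order. On that day the share was higher with more peaks, and the outer intervals did not overlap. Day 2 showed no such order, with 27.3%, 23.6%, 28.0% and 27.5%. The median desert beside these genes was 0.315, 0.619, 1.175 and 2.695 Mb, and the part of its size was not tested. Genes whose closest desert peak lay at 100 to 200 kb were higher in 27.9%, and those over 500 kb away in 20.8%, on day 4. Those intervals overlapped. A palindrome in at least 1 of the peaks went with 24.1% on day 4, and none with 25%. Without the peaks on chromosomes 1 and 14 the day 4 share was 24.5%.

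**Figure D4:**
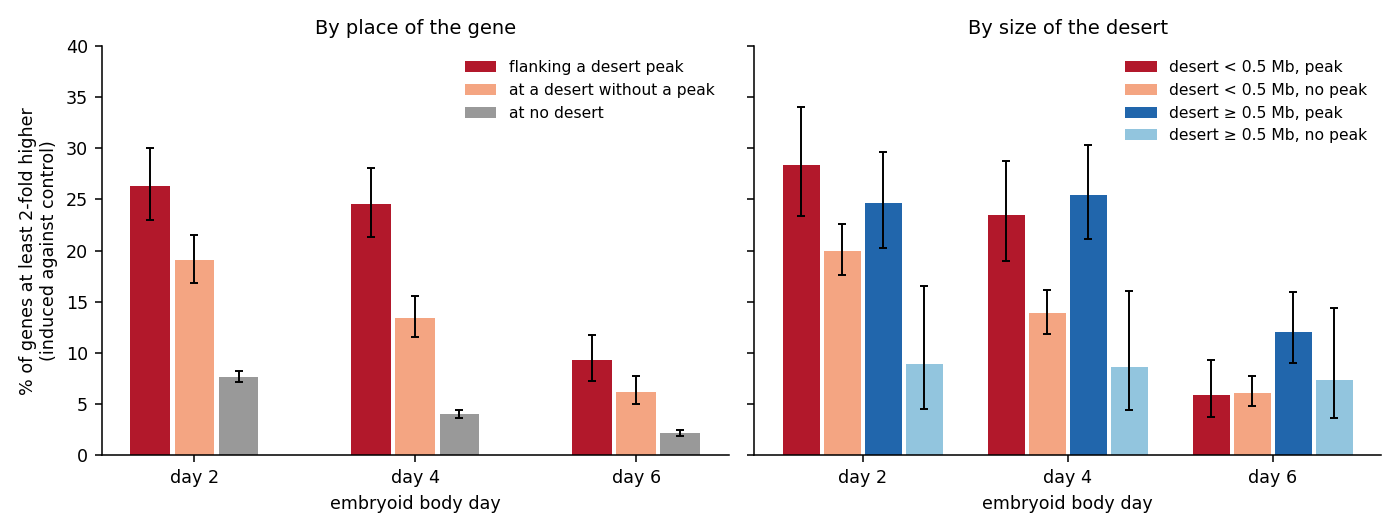
Share of genes at least 2-fold higher in induced than in control cells on each day, with 95% Wilson intervals. The left panel compares genes flanking a desert peak with genes at deserts without one of the 2063 peaks and at no desert. The right panel splits deserts at 0.5 Mb. Genes flanking a peak stand at 26.4%, 24.6% and 9.29%, above the other sets of the left panel on each day.

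Of 555 flanking genes expressed on all 3 days in either arm, 28 (5.05%) were at least 2-fold higher on every day, against 1.2% of all genes. Genes at deserts without a peak were higher on every day in 29 of 1006 (2.88%), and protein-coding genes at no desert in 77 of 9778 (0.788%). Of the flanking genes 1, Has2, was lower on every day, against 0.0848% of all genes. A limma fit of the induced minus control difference over the 3 days, with day as a block and Benjamini-Hochberg adjustment over all 13661 genes, left 3 genes below an adjusted p of 0.05 (0.022% of those tested). Only 1 of 678 flanking genes passed it, 2610203C20Rik. Its spread is that of the difference between days and not between cultures. At an unadjusted p below 0.05 in the same fit, 232 flanking genes (34.2%) were higher and 22 (3.24%) lower, against 16.3% and 4.72% of all genes. The lasting genes are described next by known roles, in groups made after their values were seen. Since no other flanking gene passed the test, their values are given as values.

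2610203C20Rik is a locus without an assigned function, with 1 desert peak 113 kb away at chr9:41501309-41501441. It had 0.463, 0.118 and 0.285 FPKM in control and 13.6, 14.1 and 13.1 FPKM in induced cells. All 3 induced libraries were far above all 3 control libraries. Its mean log2 difference was 3.51 with a standard error of 0.167 (limma adjusted p = 0.0241), and no flanking gene passed in 3 of 7 alternative fits.

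Of the 28 higher genes, 4 (Cntn3, Epha3, Lphn3 and Plxna2) were on the list of neural adhesion and guidance genes counted further on. They are given here with other neural and channel genes, which were on no list or on another one. Lrrn1, a leucine-rich repeat membrane protein of neural tissue, had 4 desert peaks, including the MORE-type peak of score 19 shown above and the one with 2 palindromes. Its levels were 1.43, 2.55 and 2.53 FPKM in control and 17.9, 16.7 and 17.2 FPKM in induced cells, so the arms did not overlap (mean log2 difference 2.55, SE 0.182, limma adjusted p = 0.0538). Plxna2, a plexin co-receptor for semaphorins, flanked 13 desert peaks in the gap from Camk1g, of which 2 held a MORE-type site and 2 an octamer. It had 0.597, 5.28 and 6.89 FPKM in control and 28.3, 16.7 and 17.5 FPKM in induced cells, and the control levels were higher on the later days. Epha3, an ephrin receptor tyrosine kinase, had 4 desert peaks, one of which is the MORE-type peak shown. With 0.0602, 0.122 and 0.107 FPKM in control and 3.67, 3.05 and 3.76 FPKM in induced cells, its levels were nearly flat over time in both arms.

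Fat3, an atypical cadherin of neurons, had 0.191, 0.281 and 0.774 FPKM in control and 1.68, 3.46 and 3.10 FPKM in induced cells. Its octamer peak lay 107 kb from a transcript start. Syt1, the calcium sensor of synaptic vesicles, had 6 desert peaks from 107 to 633 kb away. Its levels were low but separate, at 0.170, 0.115 and 0.282 FPKM in control and 2.17, 2.75 and 1.74 FPKM in induced cells. Gap43, a growth cone protein, had 5.45, 2.35 and 7.01 FPKM in control and 21.2, 10.6 and 19.9 FPKM in induced cells. Its 2 desert peaks held none of the 3 sites. Nrcam, a neuronal adhesion protein, had 1.28, 2.88 and 1.54 FPKM in control and 12.7, 10.6 and 6.34 FPKM in induced cells. The receptor phosphatases Ptprd and Ptprz1, the latrophilin Lphn3, the contactin Cntn3 and the neuroserpin gene Serpini1 showed the same order of the arms. So did the ion channel genes Kcnd2 and Trpc4. Trpc4 had 0.124, 0.0769 and 0.182 FPKM in control and 6.70, 7.83 and 3.02 FPKM in induced cells.

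Ebf1 and Dlx6 were the 2 lasting genes on the list of developmental transcription factors, and Dach1, Hdac9 and Nr4a2 are set beside them by their known roles. Ebf1, a factor of lymphoid and neuronal differentiation, had 2 desert peaks at 771 and 863 kb. It stood at 0.806, 0.248 and 0.780 FPKM in control and 19.4, 13.1 and 6.45 FPKM in induced cells. Dach1, a corepressor of eye and limb development, flanked 20 desert peaks on chromosome 14, of which 2 held an octamer. Its control level was 0.132, 1.13 and 3.33 FPKM and its induced level 7.29, 10.1 and 8.77 FPKM, so the gap narrowed to day 6. Dlx6, a homeodomain factor of forebrain and jaw, had 0.0506, 0.0166 and 0.335 FPKM in control and 5.75, 3.07 and 2.22 FPKM in induced cells. One of its 2 desert peaks, both about 173 kb away, held an octamer. Hdac9, a histone deacetylase, had a peak of score 19 at 155 kb, and levels of 0.298, 0.243 and 0.601 FPKM in control and 8.52, 13.3 and 5.71 FPKM in induced cells. Nr4a2, an orphan nuclear receptor of dopamine neurons, had 4 desert peaks, the closest at 855 kb. It stood at 0.305, 0.747 and 1.37 FPKM in control and 5.28, 4.88 and 4.34 FPKM in induced cells.

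Among signalling genes, Grb14, an adaptor of the insulin receptor, had 1.18, 2.87 and 2.65 FPKM in control and 28.0, 35.8 and 18.6 FPKM in induced cells (mean log2 difference 3.14, SE 0.269, limma adjusted p = 0.0637). Its 3 desert peaks included one of score 19 at 550 kb. Dok5, an adaptor of receptor tyrosine kinases, had 4 desert peaks of which 3 held the palindrome. Its levels were 0.442, 0.679 and 2.41 FPKM in control and 2.86, 7.22 and 9.88 FPKM in induced cells, and both arms were highest on day 6. Pdgfc, a platelet-derived growth factor, Trib2, a pseudokinase, and Arhgap18, a GTPase-activating protein, were the others. The list of 28 also held Anxa10, Luzp2 and Fam84a. Has2, the hyaluronan synthase that builds pericellular matrix, was the exception in direction. It had 7.02, 12.3 and 63.4 FPKM in control and 1.81, 3.07 and 23.9 FPKM in induced cells, with 1 desert peak at 252 kb (mean log2 difference -1.53, SE 0.131, limma adjusted p = 0.0637).

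**Figure D5:**
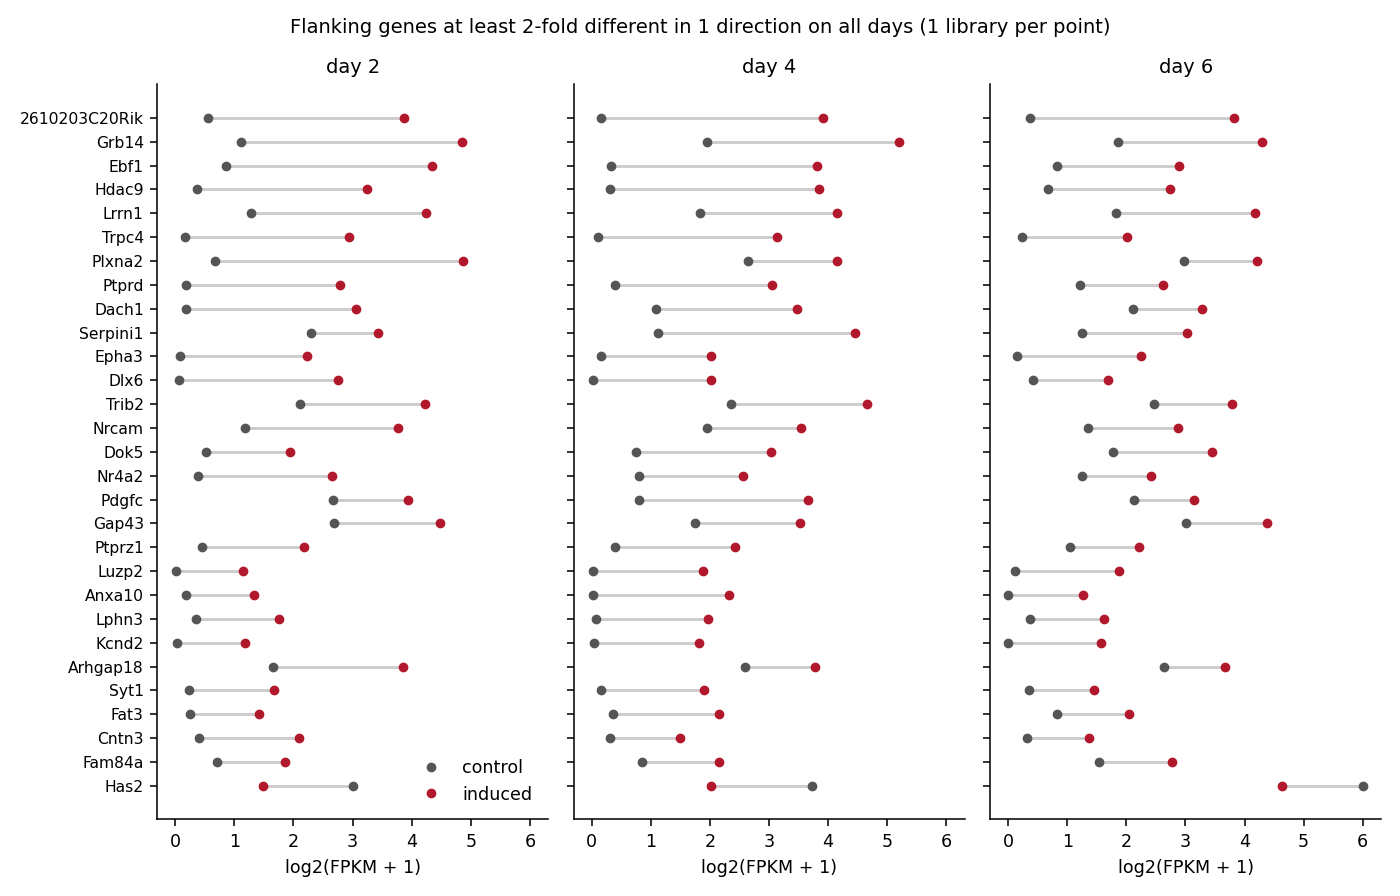
Level of the 28 flanking genes that were at least 2-fold higher in induced cells on every day, and of Has2, the 1 that was lower, as log2(FPKM + 1) in control (grey) and induced (red) libraries. Each point is 1 library, and for the genes other than Has2 the red point lies to the right on each day.

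Gene families were then counted by lists of symbols. Of 198 neural adhesion and guidance genes in the table, 68 (34.3%) flanked a desert peak, against 4.99% of all protein-coding genes. Among those expressed, 16 of 27 were higher on day 2, 18 of 34 on day 4 and 10 of 35 on day 6, with 1 lower on each day. Listed genes that flanked no desert peak were higher in 15 of 68, 14 of 75 and 9 of 79. Median log2 differences were 1.32, 1.03 and 0.52 for the flanking members and 0.39, 0.22 and 0.12 for the others. Cdh11, a cadherin of mesenchyme and neural tissue with 4 desert peaks, had 1.25, 7.999 and 25.2 FPKM in control and 42.1, 33.1 and 39.1 FPKM in induced cells. The arms of Cdh11 thus drew together as the control level became higher. Efna5, an ephrin ligand beside 18 desert peaks, had 0.400, 2.08 and 7.16 FPKM in control and 7.88, 9.07 and 7.08 FPKM in induced cells, and its arms were level on day 6. Sema6a, a semaphorin, was the lower one on days 2 and 4, at 13.3 and 16.9 FPKM in control and 5.43 and 6.17 FPKM in induced cells. Cdh5, the endothelial cadherin, was the lower one on day 6, at 6.55 and 1.505 FPKM.

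Of 368 developmental transcription factor genes, 57 (15.5%) flanked a desert peak. Higher in induced cells were 19 of 40 on day 2, 22 of 45 on day 4 and 7 of 49 on day 6, with 1, 1 and 5 lower. Members of the list without a desert peak were higher in 51 of 153, 47 of 158 and 39 of 206. On day 6 the share was thus smaller beside a desert peak, though the median log2 difference was 0.22 there and 0.09 for the others. Irx3, an Iroquois factor of the neural tube, had 2 desert peaks with a top score of 19. It stood at 0.655, 0.841 and 18.1 FPKM in control and 17.3, 14.9 and 12.8 FPKM in induced cells, so its order was not kept on day 6. Nkx6-1, a ventral neural tube factor with 1 MORE-type peak at 130 kb, was listed at 0 in control on day 2 and had 0.0490 and 1.03 FPKM later, against 4.24, 5.92 and 2.11 FPKM in induced cells. Pax3, of dorsal neural tube and neural crest, had 3 desert peaks between 323 and 437 kb on the Epha4 side, the closest being the MORE-type peak shown. Its levels were 0.163, 0.0355 and 0.854 FPKM in control and 0.530, 2.45 and 6.32 FPKM in induced cells. It was below 1 FPKM on day 2 and apart on days 4 and 6. Among the lower ones on day 6 were Alx1 at 5.33 against 0.743 FPKM, Pax1 at 2.56 against 0.101 FPKM and Hand2, a factor of heart and limb, at 17.1 against 7.61 FPKM, control first. Isl1 had a log2 difference of -1.32.

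The order of members with and without a desert peak also varied among the other lists. Neural progenitor and neuron genes beside a desert peak were higher in 2 of 4, 3 of 6 and 1 of 6 on the 3 days, and those without one in 10 of 18, 12 of 20 and 14 of 23. Their median log2 differences on day 6 were 0.21 and 1.54, so the members without a desert peak stood higher. Neuronal receptors and channels were higher in 3 of 10, 5 of 11 and 3 of 8 with a desert peak, and in 15 of 63, 14 of 63 and 11 of 61 without. Signalling ligands, receptors and antagonists were higher in 6 of 12, 5 of 14 and 1 of 14 with one, and in 13 of 72, 10 of 73 and 5 of 85 without.

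Of 5 pluripotency genes with a desert peak, 1 was higher and 1 lower on day 2, 3 were higher on day 4 and 1 was higher on day 6. Of 22 listed genes without one, 1, 8 and 6 were higher and 8, 4 and 0 lower on the 3 days. Nr5a2, a nuclear receptor with 6 desert peaks, had 8.16, 1.38 and 1.24 FPKM in control and 12.7, 12.9 and 4.82 FPKM in induced cells. Klf4 had 5.38, 1.12 and 2.56 FPKM in control and 8.97, 6.71 and 2.79 FPKM in induced cells, and 1 of its 2 desert peaks held a MORE-type site. Sox2, shared by pluripotent and neural cells, had 4 desert peaks, among them the octamer peak shown, 179 kb from its start. It was the lower one on day 2, at 135 against 66.7 FPKM, and stood at 35.5 against 65.9 FPKM on day 4 and 32.8 against 37.8 FPKM on day 6, control first. Mesoderm and heart genes with a desert peak were Kdr, Pdgfra and Hand2, and none of them was higher on any day, with 1, 3 and 3 of them expressed on days 2, 4 and 6. The others of that list were seldom higher too, in 1 of 5, 0 of 12 and 1 of 14. Kdr, the receptor of vascular endothelial growth factor, had 0.263, 6.97 and 13.2 FPKM in control and 0.0839, 0.834 and 5.44 FPKM in induced cells. Pdgfra, a receptor of platelet-derived growth factors, had 1.64, 5.40 and 16.9 FPKM in control and 1.32, 1.18 and 5.24 FPKM in induced cells. Mesoderm and heart markers summed to 2.29, 221.7 and 186 FPKM in control and 2.63, 139 and 45.4 FPKM in induced cells, with Mesp1 listed at 0 in control on day 2, and their part in these values was not tested.

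The lowest flanking gene on days 4 and 6 was Apob, the apolipoprotein of visceral endoderm and liver, with 3 desert peaks from 238 to 494 kb. It had 0.422, 13.0 and 17.6 FPKM in control and 0.473, 0.148 and 0.267 FPKM in induced cells. On days 4 and 6 its order followed the visceral endoderm markers given above, whose part was not tested. On day 2 Apob was below 1 FPKM in both arms and did not follow them. Of the flanking genes, Col1a2, a fibrillar collagen also made by feeder fibroblasts, had the largest difference on day 2. It had 1.76, 1.003 and 9.72 FPKM in control and 80.2, 30.4 and 11.2 FPKM in induced cells, with 1 desert peak at 111 kb. Postn, another feeder marker beside a desert peak, had 0.143, 0.101 and 33.0 FPKM in control and 1.496, 5.36 and 6.79 FPKM in induced cells, so like Col1a2 it was the higher one on days 2 and 4. Col1a1, Col3a1 and Thy1, feeder markers without a desert peak, differed by smaller folds on those days. Col1a1 had 2.01, 1.72 and 20.8 FPKM in control and 4.13, 1.46 and 7.90 FPKM in induced cells, and Thy1 had 4.73, 5.87 and 2.73 FPKM and 4.38, 2.15 and 1.48 FPKM. Col3a1 had 0.672, 0.192 and 28.6 FPKM in control and 2.20, 0.639 and 5.46 FPKM in induced cells. All 5 feeder markers summed to 9.32, 8.88 and 94.9 FPKM in control and 92.4, 39.97 and 32.9 FPKM in induced cells, of which Col1a2 was the larger part on days 2 and 4 in induced cells. Of the 3 feeder fibroblast genes that flank desert peaks, Col1a2, Postn and Dcn, 2 of 3 were higher on day 2, 2 of 2 expressed ones on day 4 and 0 on day 6, and of the others on the list 2 of 7, 0 of 5 and 0 of 7. On day 6 Postn and Dcn were the lower ones, Dcn at 2.58 against 0.581 FPKM, control first. The part of feeder cells in these values was not tested.

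Counted by peaks, 1671 desert peaks had a nearest gene in the table, and for 1040 that gene was expressed on day 4. The gene was at least 2-fold higher in induced cells for 311 of these peaks and lower for 5, where 6.09% and 2.11% of all genes were higher and lower on that day. Peaks that share a nearest gene share its value, so these are not independent counts.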

How the data were processed

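RNA-seq of 6 libraries and 1 Oct6 ChIP with 1 input were used as the authors deposited them. The submitters' processing notes name HOMER, Cuffdiff, Cufflinks 1.3.0 and TopHat 1.4.1, and the build mm9. The authors deposited FPKM per gene symbol and library, and a peak list whose score is the authors' own value, on a scale the sources used here do not give. Peaks were called from 1 library, so neither peaks nor folds within a day have a replicate check. FPKM keeps no fragment numbers, so no counting interval was put on levels.

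Desert peaks were placed with the GENCODE annotation of NCBIM37, the assembly behind mm9, leaving out 14 peaks on contigs. Flanking genes were the protein-coding genes of the nearest transcript start on each side, counted once and matched to the table by symbol (182 were not in it and 1 matched by a synonym). Differences are induced minus control of log2(FPKM + 1), for genes that reached 1 FPKM in either library of the day. Limma 3.58.1 in R 4.3.3 (lmFit, eBayes with trend, 2 residual degrees of freedom) was fitted on genes that reached 1 FPKM in any library. Shares carry 95% Wilson intervals, their differences Newcombe intervals and densities Poisson intervals. Python 3.11.15 with numpy 2.4.6, pandas 2.3.3, scipy 1.17.1, pysam 0.24.0 and matplotlib 3.10.9 was used, and the steps were tested on simulated data.

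The members and gene lists were chosen with earlier results of these data known. Family lists were made from symbol prefixes. Named were the 10 peaks of highest score, the 5 farthest, the fullest gaps, peaks at the limits, genes different on all 3 days, for each day the 8 most higher and the 8 most lower flanking genes, and listed genes, from which the text takes examples. Alternatives were other distances, scores, filters, pseudocounts, scalings and folds. Columns of other series were not present. ChIP and input signal were not analysed here. The sources used here give neither strandedness nor the handling of multi-mapping reads, so values of near-identical copies and antisense partners are uncertain.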

Additional observations from a re-analysis of the deposited data

Results flagged for a closer look

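4 flanking genes (Pkdcc, Postn, Slc30a10 and Tbx20) were at least 2-fold higher in induced cells on 1 day and at least 2-fold lower on another, and the difference between days was not tested. Pkdcc, a secreted kinase, had a log2 difference of 1.06 on day 2 and -1.05 on day 6, as control rose from 5.11 to 87.0 FPKM and induced stood at 11.7 and 41.5 FPKM. Postn, a matrix protein of fibroblasts, stood at 2.53 on day 4 and -2.13 on day 6, with 0.101 and 33.0 FPKM in control and 5.36 and 6.79 FPKM in induced cells. Slc30a10, a metal transporter, stood at 1.29 on day 4 and -1.07 on day 6, with 0.149 and 3.08 FPKM in control and 1.80 and 0.948 FPKM in induced cells. Tbx20, a heart T-box factor, stood at 1.06 on day 2 and -1.25 on day 4, with 0.240 and 2.11 FPKM in control and 1.58 and 0.303 FPKM in induced cells. Each value comes from 1 library.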

How the results depend on the processing

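The labels give no replicate numbers, and day, which pairs 1 control with 1 induced library, served as the block of the limma fit. The number of desert peaks was 2508 beyond 50 kb, 1503 beyond 200 kb, 2130 without the score limit and 2045 with the starts of every transcript of protein-coding genes. It was 1186 with scores of at least the list's median and 1301 with genes of any biotype in place of protein-coding ones. The octamer share was 3.83% in the central 100 bases and 47.4% with 1 mismatch allowed. Flanking genes at least 2-fold different numbered 164, 163 and 76 on days 2, 4 and 6. With an FPKM of at least 5 these were 101, 83 and 37, and with a 3-fold limit 75, 79 and 23, as a stricter limit keeps fewer genes. With peaks beyond 200 kb they were 95 on day 2 and 103 on day 4, from fewer genes. A pseudocount of 0.1 gave 122 on day 6. Under the other settings the counts were within 1.5 times of those reported, and higher genes outnumbered lower ones in every setting. Scaling the libraries to a common median ratio moved the median difference of all genes on day 2 from 0.17 to 0.03 and that of the flanking genes from 0.40 to 0.26. Quantile normalisation gave -0.03 and 0.16.

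The limma fit called 1 flanking gene, and 0 with a pseudocount of 0.1, without the filter or without day 4. It called 5 after quantile normalisation, 2 with no day block, 5 without day 2 and 13 without day 6. At an unadjusted p under 0.05 the 3 fits that called 0 had 237 higher and 22 lower, 224 and 26, and 125 and 13. With a limit of 0.3 FPKM, 57.5%, 58.1% and 65.6% of flanking genes were expressed in control on days 2, 4 and 6, and 68.5%, 70.8% and 71.8% in induced cells, since a lower limit passes more genes.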
